A study of Mus musculus with 2 samples.

Results

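The genes described here are 10 regulators of mitochondrial and oxidative gene expression, taken by their symbols with earlier results of these data known. They are the coactivators Ppargc1a and Ppargc1b, the estrogen-related receptors Esrra, Esrrb and Esrrg, and the peroxisome proliferator-activated receptors Ppara, Ppard and Pparg. The factors Nrf1 and Tfam complete the set. These genes are 10 of 55536 gene identifiers in the tables. Sequencing covered total RNA of the gastrocnemius, the main calf muscle, from 2 adult female B6CASTF1/J mice of 8 to 10 months, F1 hybrids of the B6 and CAST strains, with no treatment given in the labels. Each mouse gave 1 library from 300 ng of RNA, reduced in ribosomal RNA and with ERCC spike-ins. Replicates 1 and 2 are animals 1 and 3 of the labels, whose tissue samples are listed separately although the donor identifier is shared. Both form 1 group, so there is no comparison between conditions and no test: levels are given per library and as mean ± SD (n = 2), and differences between the animals are described by their size.

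PGC-1 coactivators bind no DNA themselves and are recruited to promoters by transcription factors, among them the ERR and PPAR nuclear receptors and NRF1. In muscle, PGC-1α is known to rise with exercise and cold and to raise genes of respiration and fatty acid oxidation, and its coactivation of NRF1 and the GA-binding protein GABP raises Tfam. TFAM is imported into mitochondria, packages mitochondrial DNA and starts its transcription.

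Library depth was close, with 42714567 expected counts in replicate 1 and 43421652 in replicate 2, and counting intervals below cover counting error only. Of all TPM, a level scaled for transcript length and depth, Rn7s1 and Rn7s2 held 27.0% in replicate 1 and 33.6% in replicate 2, so TPM values of other genes are lowered more in replicate 2. Ratios between animals were therefore taken from counts scaled by TMM, a normalization that balances most genes. The tissue label matched its markers: 6 skeletal muscle fibre markers summed to 75124 and 65843 TPM, led by Acta1. Macrophage markers summed to 10.3 and 9.91 TPM, satellite cell markers to 11.5 and 11.3, endothelial markers (6 of 6 detected) to 56.2 and 45.9, fibroblast markers (5 of 5) to 127 and 91.1 and adipocyte markers (3 of 8) to 68.7 and 54.6. On the TMM scale the median log2 ratio of replicate 2 over replicate 1 was 0.12 and 0.17 for the first 2 of these lists and -0.22, -0.25 and -0.23 for the last 3, which were lower in replicate 2. Lyz2, Cdh15, Egfl7, Dcn and Fabp4 led these lists. Of the heart, liver and brain markers, Myh6 made up nearly all of 56.2 and 53.6 TPM and Apoa1 was at 0. The second quantification put Myh6 at only 20.6 and 21.1 TPM, so its level is uncertain. The cause of that gap was not tested. In bulk tissue, a change in the number of cells of a type and in RNA per cell cannot be told apart.

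The forms of PGC-1α that the annotation separates can be seen in their coding sequence. GENCODE M21 lists 5 Ppargc1a transcripts, and the ends that tell them apart are shown because the transcript values below turn on them. Ppargc1a lies on the minus strand of mm10 (ENSMUSG00000029167.13, chr5:51454250-51567726). Its starts fall in 2 groups, a distal group led by Ppargc1a-202 and a proximal group 13804 bases downstream that holds Ppargc1a-201, Ppargc1a-203 and Ppargc1a-205. The first 60 coding bases follow, from chr5:51548680-51553782 for Ppargc1a-203 and chr5:51548668-51567665 for Ppargc1a-202, read across the first splice junction on the minus strand. Capitals mark the bases of each transcript's own first exon and lower case the shared second exon.
Ppargc1a-203: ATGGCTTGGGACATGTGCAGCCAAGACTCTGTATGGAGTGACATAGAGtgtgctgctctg
Ppargc1a-202: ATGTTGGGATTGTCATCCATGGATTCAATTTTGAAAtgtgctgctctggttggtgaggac
The proximal form starts with 48 coding bases of its own and the distal form with 36, after which both continue in the same exon.

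Ppargc1a-201 holds an insert of 31 bases, chr5:51490091-51490121 on the minus strand, that the full-length Ppargc1a-203 lacks and that brings an early stop. Ppargc1a-201 is also annotated with an earlier end, at chr5:51457653 against chr5:51454250, and has 3041 bases against 6464. The annotation gives Ppargc1a-201 a coding sequence of 270 codons, 266 of them shared with Ppargc1a-203, and marks it as a candidate for nonsense-mediated decay. Such a stop after this insert is known from the short form NT-PGC-1α. The junction is shown with the insert's coding bases in capitals, up to the stop codon in Ppargc1a-201.
Ppargc1a-201: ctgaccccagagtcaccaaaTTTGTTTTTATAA
Ppargc1a-203: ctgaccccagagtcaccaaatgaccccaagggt
Ppargc1a-203 reads on through the same position to 797 codons.

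The annotation also separates forms of Esrrg and Esrrb at the front of their coding sequence. The first coding bases of Esrrg-201 (chr1:187997997-188043367, plus strand) carry 69 bases, or 23 codons, that Esrrg-202 (chr1:188043347-188043367) lacks, shown in capitals.
Esrrg-201: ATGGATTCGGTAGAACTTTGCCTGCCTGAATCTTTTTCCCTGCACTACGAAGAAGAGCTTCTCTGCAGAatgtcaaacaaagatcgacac
Esrrg-202: atgtcaaacaaagatcgacac
In Esrrb, the transcript from the first start, Esrrb-204 (chr12:86361537-86470170, plus strand), lacks 16 codons at the front that Esrrb-203 (chr12:86421915-86470170) has. Capitals mark the bases of each own exon before the shared one.
Esrrb-203: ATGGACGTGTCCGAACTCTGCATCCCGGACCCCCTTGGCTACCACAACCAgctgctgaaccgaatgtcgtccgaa
Esrrb-204: ATgctgctgaaccgaatgtcgtccgaa
These sequences were assembled from the GENCODE M21 transcripts.

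In this muscle all but Pparg were detected at 1 TPM or more in both libraries, as were 10529 of all 55536 gene identifiers. The genes were chosen with earlier results known, so this count is no test. Mean levels of the 10 genes spanned from 40.1 TPM (Esrra) to 0.890 TPM (Pparg). Pparg was at 1.22 TPM in replicate 1 and at a mean of 1.26 TPM in the second quantification. Esrra, the receptor that carries much of the PGC-1α response in muscle, was the highest of the 10 at 41.76 TPM in replicate 1 and 38.43 TPM in replicate 2 (40.1 ± 2.35, SD, n = 2). It stood at rank 1335 of 21938 nuclear protein-coding genes. Ppargc1a followed with 28.39 and 18.30 TPM (23.3 ± 7.13) and Tfam with 24.17 and 19.69 TPM (21.9 ± 3.17). The remaining detected genes lay between 11.7 TPM (Ppard) and 3.39 TPM (Esrrb) on average. Of 9 steps between neighbours in the order of mean TPM, 4 were larger than the sum of both SDs: Esrra over Ppargc1a, Tfam over Ppard, Nrf1 over Esrrb and Esrrb over Pparg. The order of Ppargc1a and Tfam turned around between the libraries, as did the orders of Ppara and Ppargc1b and of Ppargc1b and Nrf1.

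**Figure D1:**
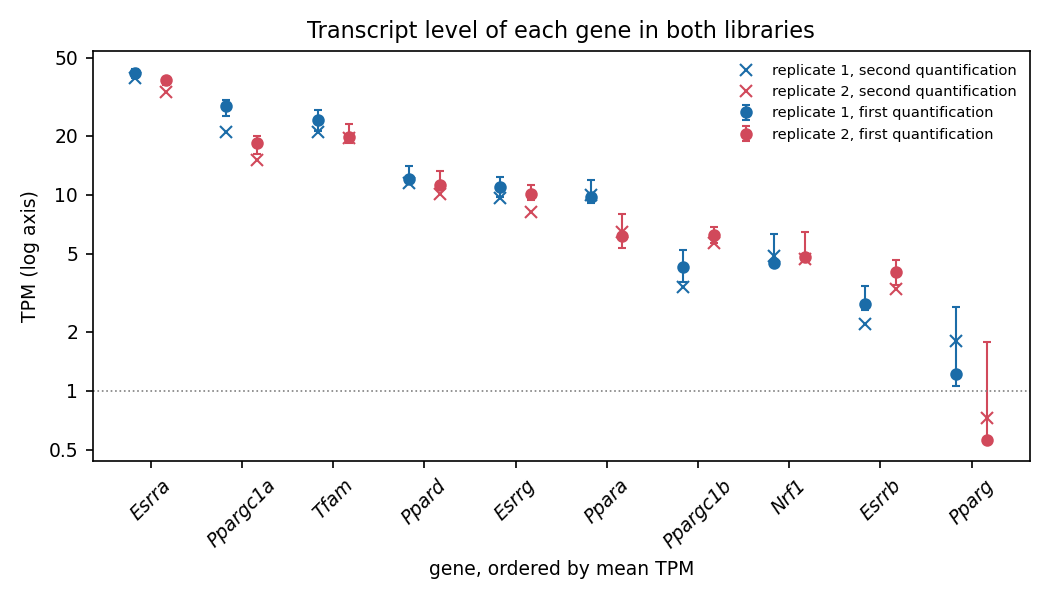
Level of each of the 10 genes in TPM (log axis) in replicate 1 (blue) and replicate 2 (red); circles are the first quantification with the authors' credibility interval of TPM as bars, crosses the second quantification, and the dotted line is the detection limit of 1 TPM. Esrra lies highest, at 41.76 and 38.43 TPM, and replicate 2 of Pparg falls below the line at 0.56 TPM.

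Among the coactivators, Ppargc1a was the more abundant, but its lead was unequal in the 2 animals. Ppargc1b, which encodes PGC-1β, stood at 4.29 TPM in replicate 1 and 6.21 TPM in replicate 2 (5.25 ± 1.36, n = 2), while Ppargc1a was lower in replicate 2. The level of Ppargc1a was 6.62 times that of Ppargc1b in replicate 1 and 2.95 times in replicate 2 (4.78 ± 2.60). Ppargc1a thus held 86.9% and 74.7% of the TPM of the pair. By the second quantification the ratios were 6.18 and 2.65, and over transcripts with complete ends, described below, the mean ratio was 3.06.

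The counts of the coactivators also differed in opposite directions. Ppargc1b (ENSMUSG00000033871.14, chromosome 18, minus strand, 61298136 to 61400431) had 333 and 686 expected counts, and after TMM scaling it was 2.03-fold higher in replicate 2 (log2 ratio 1.02, counting interval 0.84 to 1.22). It was the 1 gene of the 9 with enough counts that lay at least 2-fold apart, against 1.38% of the 11125 genes compared (0.683% at least 2-fold higher in replicate 2 and 0.701% in replicate 1). As large a difference was seen in 1.26% of those genes. Ppargc1a, with 2630 and 2162 counts, was 1.23-fold higher in replicate 1 (log2 ratio -0.30, counting interval -0.38 to -0.22), a difference that 19.5% of genes equalled or passed. The 2 log2 ratios lay on opposite sides of 0, and neither counting interval held 0. Scaling by the spike-ins instead moved the median of all genes from 0.00 to -0.12 and left Ppargc1b at 1.86-fold, under the 2-fold limit.

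Of the ERR receptors, which bind as orphan receptors without a known natural ligand and respond to PGC-1 coactivators, Esrra made up 74.2 ± 1.45% of the summed TPM, Esrrg 19.5 ± 0.430% and Esrrb 6.31 ± 1.88% (n = 2). Esrrg, known for its part in oxidative fibres and their vascular supply, stood at 10.96 and 10.05 TPM, with 1386 and 1603 counts. Esrra was 3.81 times as abundant as Esrrg in replicate 1 and 3.82 times in replicate 2, the steadiest of the ratios taken within the families. Esrrb, best known from pluripotent stem cells and the inner ear, stood at 2.76 TPM in replicate 1 and 4.01 TPM in replicate 2. Its 318 and 464 counts gave a 1.44-fold higher level in replicate 2 (log2 ratio 0.53, counting interval 0.32 to 0.74), which 7.05% of all genes compared matched or passed. The log2 ratios of Esrra and Esrrg were 0.07 and 0.19, the counting interval of the first held 0, and with spike-ins they were -0.06 and 0.07.

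The PPARs, receptors for fatty acids and their derivatives, were led by Ppard, which is known in muscle for driving fatty acid oxidation. Ppard stood at 12.06 and 11.26 TPM, Ppara at 9.78 and 6.19 and Pparg at 1.22 and 0.56. Ppard therefore held 57.4 ± 7.23% of PPAR TPM, Ppara 38.4 ± 5.69% and Pparg 5.29% in replicate 1 and 3.11% in replicate 2. The lead of Ppard over Ppara was 1.23-fold in replicate 1 and 1.82-fold in replicate 2. Ppara (ENSMUSG00000022383.13, chr15:85734983-85802819, plus strand) had 796 counts in replicate 1 and 431 in replicate 2, a 1.86-fold higher level in replicate 1 (log2 ratio -0.90, counting interval -1.07 to -0.73). As large a difference was seen in 1.94% of genes, and with spike-in scaling Ppara passed the limit at 2.04-fold. On the TMM scale the medians of the fibroblast, endothelial and adipocyte markers were -0.25, -0.22 and -0.23. Higher in replicate 1 were 5 of 5, 5 of 6 and 4 of 5 of their markers with enough counts. Summed TPM was higher in replicate 1 for every marker list and does not set these lists apart. Their part in the Ppara difference was not tested.

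Pparg, the receptor that drives fat cell formation, had 49 and 27 counts, too few for the comparison between animals. The adipocyte markers were present at a low level: Fabp4, which endothelial cells also express, led at 49.2 ± 9.44 TPM, while the fat cell hormone Adipoq had 1.70 and 0.97 TPM and no marker of the list was at 0 in both libraries. The list had no single direction: of its 5 markers with enough counts 4 were higher in replicate 1 and Cfd in replicate 2, and below that minimum Adipoq had 43 and 28 counts, Retn 11 and 25 and Lep 12 and 20. How much of Pparg came from fat cells was not tested.

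The factors that link these regulators to mitochondrial DNA differed little between the animals. Nrf1, which binds promoters of respiratory chain genes, stood at 4.48 and 4.82 TPM (4.65 ± 0.240, n = 2) with 292 and 310 counts, and Tfam had 1155 and 1145 counts. Their log2 ratios were 0.07 (counting interval -0.17 to 0.31) and -0.03 (-0.15 to 0.09), and both intervals held 0. Tfam was thus several times as abundant per length as Nrf1 in both libraries.

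Across the 9 genes with enough counts, 6 had a log2 ratio above 0 and 3 below it, with a median of 0.07, beside 0.00 over all 11125 genes. The median size of the log2 ratio, without its sign, was 0.19 for the 9 genes and 0.12 for all genes. For 5 of the 9 the counting interval held no 0: Ppargc1b, Esrrb and Esrrg were higher in replicate 2, Ppara and Ppargc1a in replicate 1. The share of all genes with such an interval was not computed, so this count has no background beside it. The interval also narrows as counts rise. With spike-in scaling 5 of the 9 were below 0 and the median was -0.06. The posterior SD of the count, which rises where reads fit several genes, was listed at 0 for each of the 10 genes in both libraries.

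**Figure D2:**
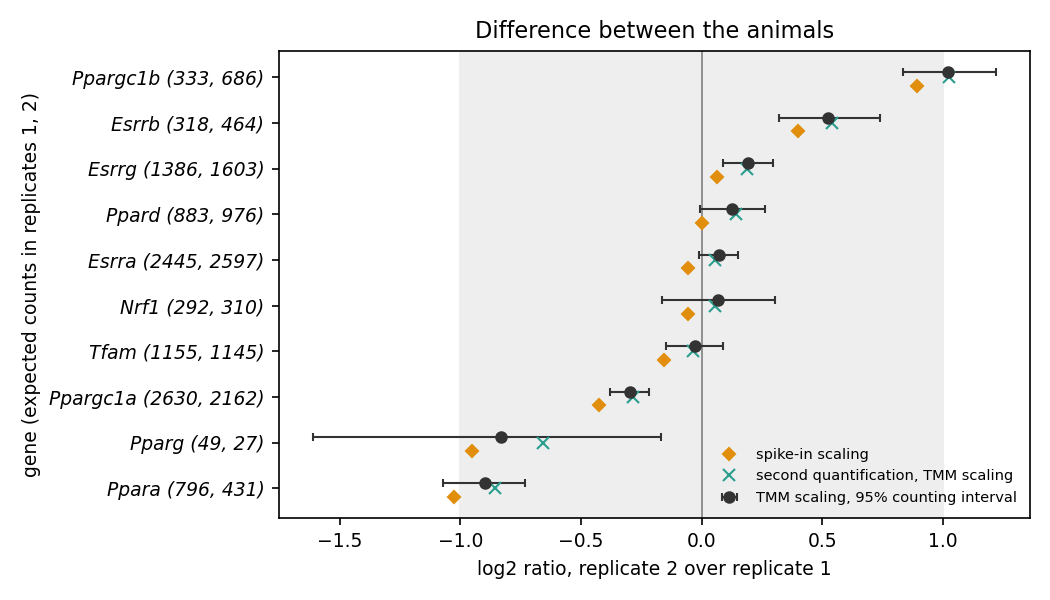
Log2 ratio of replicate 2 over replicate 1 for each gene, with its expected counts in both libraries; circles with bars are TMM scaling with the 95% counting interval, diamonds spike-in scaling, crosses the second quantification, and the shaded band holds differences under 2-fold. Ppargc1b at 1.02 and Ppara at -0.90 lie farthest from 0 among the genes with enough counts, and spike-in values lie left of TMM values for every gene.

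Most Ppargc1a reads were assigned to the full-length proximal form. Ppargc1a-203 took 1969.59 counts in replicate 1 and 1699.19 in replicate 2, or 76.7 ± 2.62% of the gene's counts. Ppargc1a-201, with the insert and early stop, took 542.86 and 300.00 counts. Ppargc1a-202, from the distal start, took 117.37 and 71.97. Ppargc1a-205 took 0.18 and 90.84, and Ppargc1a-204 none. Ppargc1a-203 was first and Ppargc1a-201 second in both libraries, while the third was Ppargc1a-202 in replicate 1 and Ppargc1a-205 in replicate 2.

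By TPM, which divides counts by length, the order was different. Ppargc1a-203 held 38.9% and 45.4% of the gene's TPM (42.1 ± 4.60, n = 2), Ppargc1a-202 38.0% and 31.5%, and Ppargc1a-201 23.2% and 17.3%. Ppargc1a-205 held 0.01% and 5.81%. Ppargc1a-202 is annotated as an incomplete fragment of 488 bases, with an effective length of 388 bases against 6364 for Ppargc1a-203, so each of its reads weighs far more in TPM. The distal starts accordingly took 34.7 ± 4.57% of TPM but 3.90 ± 0.802% of counts. In replicate 1 the count share was 4.46% (95% Wilson interval 3.72 to 5.31) and in replicate 2 3.33% (2.65 to 4.17). In the second quantification the distal share was 22.5% of TPM and 1.49% of counts.

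Leaving out transcripts with incomplete ends lowered Ppargc1a from 23.3 to 15.1 ± 3.59 TPM. Tfam, computed likewise, was at 20.2 ± 0.728 TPM, so Ppargc1a then ranked below Tfam in both libraries. The second quantification, with that fragment kept, put Ppargc1a (17.9 ± 4.15 TPM) below Tfam (20.1 ± 0.990 TPM) on average. In its replicate 1, however, Ppargc1a was at 20.9 TPM and Tfam at 20.8. The lead of Ppargc1a over Tfam by mean TPM thus depends on both choices.

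**Figure D3:**
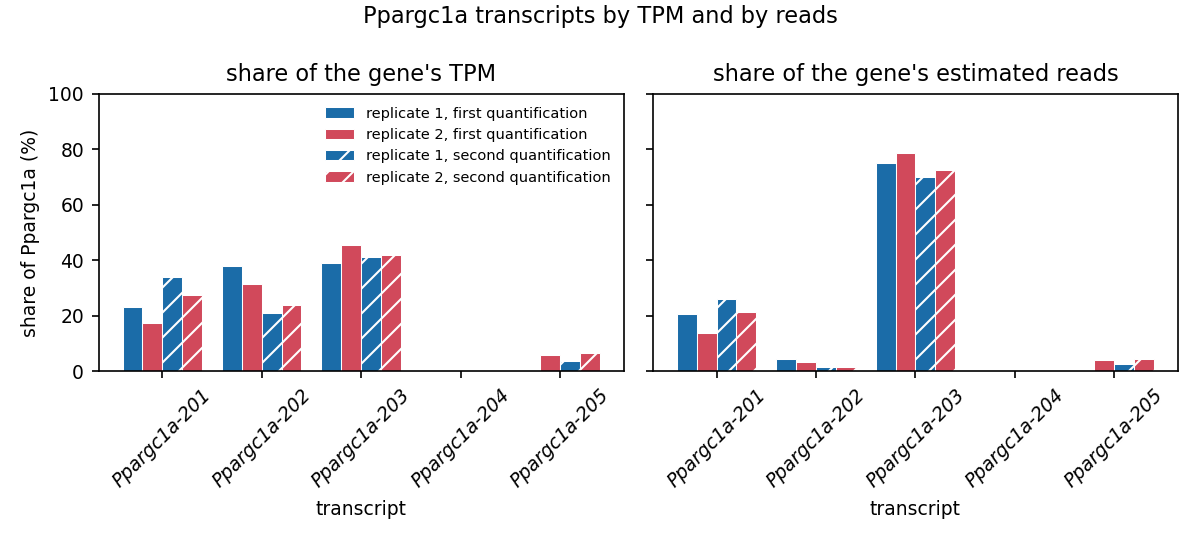
Share of each annotated Ppargc1a transcript in its gene (%), by TPM (left) and by estimated reads (right); blue is replicate 1, red replicate 2, plain bars the first and hatched bars the second quantification. Ppargc1a-202 reaches 38.0% by TPM in replicate 1 and 4.46% by reads, and Ppargc1a-203 leads by reads in every column.

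The estimated share with the 31-base insert was higher in replicate 1 by each measure taken. All bases of Ppargc1a-201 but these 31 are also in Ppargc1a-203. The shares are therefore estimates of how reads were assigned, not counts of reads seen across the insert. The share was 23.2% and 17.3% of TPM (20.2 ± 4.14), 37.4% and 25.3% of TPM among transcripts with complete ends, and 20.6% and 13.9% of counts. The second quantification gave 34.0% and 27.5% of TPM. The share thus ranged from 17.3% of counts to 39.6% of TPM on average, depending on the quantification and on which transcripts entered.

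Use of the annotated Esrrb starts differed between the animals. The transcript from the first start, Esrrb-204, took 24.55 counts in replicate 1, or 7.72% of the gene (95% Wilson interval 5.38 to 11.3), and 147.75 counts in replicate 2, or 31.8% (27.8 to 36.3). The group 60527 bases downstream, where Esrrb-203 starts, took 293.45 and 286.73 counts. The higher Esrrb count of replicate 2 was thus assigned to the first start and, with 29.51 counts against none, to Esrrb-206. The second quantification put the first start at 6.82% and 47.2%. These are estimates over transcripts that share most of their length, and the intervals do not cover that.

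For Esrrg, the distal starts took 18.4% of counts in replicate 1 (95% Wilson interval 16.4 to 20.5) and 25.1% in replicate 2 (23.0 to 27.3), and the group 389036 bases downstream took 81.5% and 74.9%. The second quantification raised the distal share to 35.3% and 38.5%. Esrrg-201, with the 23 extra codons, led by TPM in the first quantification (41.8% and 58.6%) but held 1.00% and 25.1% in the second, where Esrrg-202 and Esrrg-203 led. The leading Esrrg form was therefore not the same in both quantifications.

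Across the 10 genes and their 71 transcripts, the form with the highest TPM share was the same in both libraries for 9 genes (all but Pparg), and the same in both libraries and both quantifications for 5. Those 5 were Ppargc1a-203, Ppargc1b-202 (86.1 ± 14.3%), Esrra-201 (95.6 ± 0.870%), Ppard-201 (68.2 ± 3.27%) and Nrf1-210 (40.4 ± 6.18%). Ppara-202 led in the first quantification with 66.3 ± 19.4%, and Esrrb-203 with 73.4 ± 27.0%. For Pparg, Pparg-201 led in replicate 1 with 37.3% and Pparg-202 in replicate 2 with 39.7%, on the few counts given above. Tfam-201, the longest form, took most counts in both libraries (75.3% and 74.9%), but by TPM Tfam-202 led in the first quantification (54.2% and 65.6%) and Tfam-203 in the second (52.6% and 38.1%). Counted by reads rather than TPM, the leading form of the first quantification was the same in both libraries for all 10 genes.

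**Figure D4:**
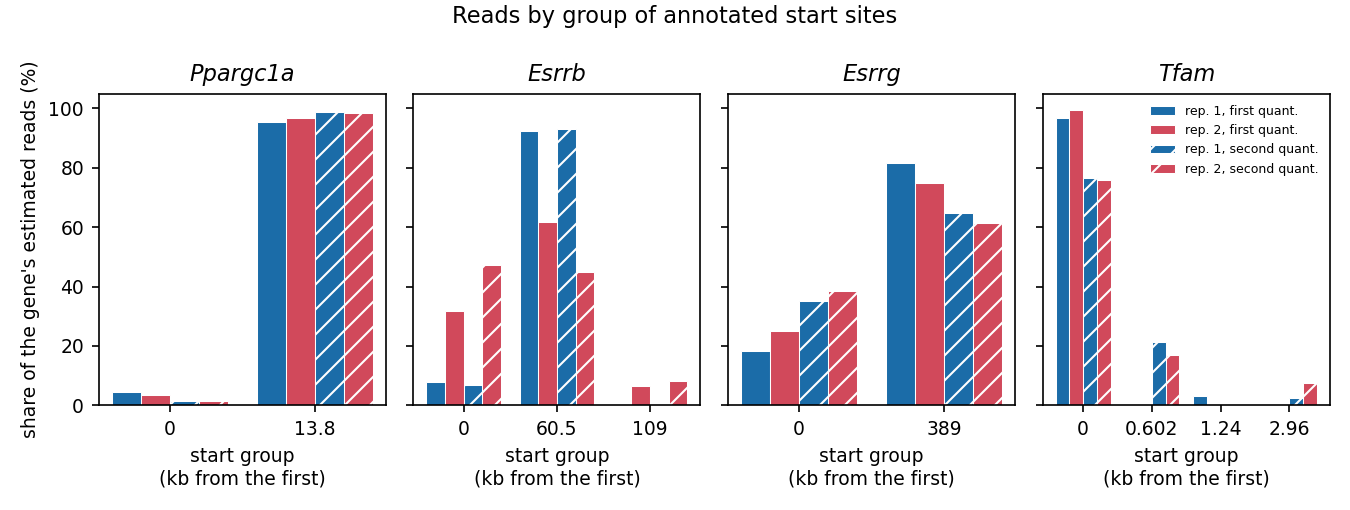
Share of the estimated reads of Ppargc1a, Esrrb, Esrrg and Tfam (%) by group of annotated starts, placed by distance in kilobases from the gene's first start (starts within 500 bases form a group; groups of at least 1% in some column are drawn). Colours and hatching are as for the Ppargc1a transcripts; the first Esrrb start holds 7.72% in replicate 1 and 31.8% in replicate 2.

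Promoter windows of 300 bases (250 before and 50 after a RefSeq start, GRCm38.p6, the assembly also called mm10) were found for 9 of the 10 genes, 16 windows in all. They were searched on both strands for motifs of factors of the same network. The short cAMP response element TGACG was in windows of Ppargc1a, Esrrb, Ppara and Ppard, and in 20.8% of all 32851 windows. The full element TGACGTCA, which holds the short one, was in none of the 16 and in 1.79% of all windows. The distal Ppargc1a promoter is shown because the distal starts take the share that differs between TPM and counts above. It lies upstream of the first annotated start on the minus strand (chr5:51567727-51567975), with the short element, read here as CGTCA, in capitals.
Ppargc1a distal promoter: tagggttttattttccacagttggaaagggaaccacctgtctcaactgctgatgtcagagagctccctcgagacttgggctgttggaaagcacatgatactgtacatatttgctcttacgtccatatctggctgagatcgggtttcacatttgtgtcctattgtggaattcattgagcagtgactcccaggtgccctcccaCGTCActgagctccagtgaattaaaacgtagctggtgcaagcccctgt
A letter match is a description of the window and not a measured site. The promoter of the proximal Ppargc1a starts, which took 96.1 ± 0.802% of counts, was not available as sequence and is not shown. Whether it holds either element cannot be read from the distal promoter.

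The palindromic letters of an NRF1 site, given in capitals in the Ppara sequence here, were in a Ppara window and in 0.971% of all windows. Those of a GABP site, CCGGAAGT, were in a Tfam window and in 3.89% of all. Both are printed in capitals within 28 bases, from the minus strand for Tfam (chr10:71238074-71238101) and the plus strand for Ppara (chr15:85735735-85735762).
Tfam: ctgccgcggaCCGGAAGTccgggcttcc
Ppara: gggctcggtgGCGCATGCGCgcggacta
The ERR element TCAAGGTCA was in none of the 16 windows (0.423% of all), nor was the PPAR element, AGGTCA repeated directly after 1 base of any kind (0.0396% of all). A MEF2 consensus was in an Esrrg window and in 0.164% of all windows.

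Beyond the 10 genes, partners and regulators of PGC-1 were all detected, 18 of 18. The detected counts of this and the following lists stand beside 10529 of all 55536 gene identifiers. The myogenic factor Mef2c, which drives Ppargc1a transcription in muscle, was the highest at 188 ± 17.8 TPM (n = 2). Lpin1, a phosphatidate phosphatase and coactivator, followed at 111 ± 8.41 and Perm1, a muscle regulator induced by PGC-1 and ERRs, at 78.3 ± 1.12. None lay 2-fold apart, as did 1.38% of all genes compared. The median log2 ratio was 0.01, between Creb1 at -0.31 and Gabpb1 at 0.25. All 7 corepressors were also detected, with Ncor1 the highest at 55.2 ± 1.76 TPM and Tbl1xr1 at 25.9 ± 1.27 TPM. Nrip1, known as RIP140 and as a repressor of oxidative genes in muscle, had the lowest log2 ratio at -0.54, with 3675 and 2559 counts, and Sin3a the highest at 0.35.

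Other nuclear receptors were detected in 16 of 17 cases, Vdr being at 5 and 3 counts. Rxra, the usual dimer partner of PPARs, stood at 62.4 ± 3.97 TPM, Nr4a1 at 51.8 ± 4.62 and Rora at 41.5 ± 1.99, so each was above Esrra on average, Rora by less than the SDs. Their log2 ratios lay between -0.48 (Nr3c1, the glucocorticoid receptor) and 0.28 (Nr1d1), and 6 were above 0 and 10 below (3 above 0 with spike-ins). Of 15 genes of mitochondrial DNA transcription and replication, 14 were detected. The protease Lonp1, which degrades TFAM, stood at 29.0 ± 0.516 TPM, the transcription factor Tfb2m at 20.4 ± 1.03 and the mitochondrial RNA polymerase Polrmt at 16.81 and 17.14 TPM. Tfam was thus close to Tfb2m in level. In this list 11 ratios were above 0 and 3 below (7 above 0 with spike-ins), with a median of 0.11, from Tfb1m at -0.11 to Polg2 at 0.42. Mterf1a, with 21 and 43 counts, was the gene not detected.

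Genes known to answer PGC-1 and ERR lay close together. All 18 were detected, with Atp5b of ATP synthase (1678 ± 84.4 TPM) and the muscle cytochrome oxidase subunit Cox6a2 (527 ± 5.23 TPM) the highest. Their log2 ratios ran from -0.02 (Idh3a) to 0.18 (Vegfa), with a median of 0.09 and 17 of 18 above 0. With spike-ins the median was -0.04 and 3 of 18 were above 0. None was 2-fold apart, but only 1.38% of all 11125 genes compared were, so this count says little about the list. The share of all genes above 0 was not computed, so 17 of 18 has no background beside it. Whether these genes follow Ppargc1b and Ppargc1a, with log2 ratios of 1.02 and -0.30, was not tested.

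Genes known to answer PPARs held the only 2 genes with enough counts in the 6 lists that lay at least 2-fold apart. These were 2 of 13 tested, both higher in replicate 1, as were 0.701% of all genes compared. The list was drawn up with earlier results of these data known, so these shares are no test of it. Ucp3, a mitochondrial carrier that rises with fatty acid supply, had 104.82 TPM in replicate 1 and 36.65 TPM in replicate 2, from 6676 and 2596 counts. Its level was 2.60-fold higher in replicate 1. Pdk4, the kinase that shuts off pyruvate oxidation, had 402.90 and 174.34 TPM. It was the highest gene of its list on average and 2.09-fold higher in replicate 1. Replicate 1 was thus the high library for both. The other 11 tested genes of the list had log2 ratios between -0.22 and 0.22, and their median with Ucp3 and Pdk4 was 0.08 (9 above 0 and 4 below, or 1 above 0 with spike-ins). Fabp3 (251 ± 9.85 TPM) and Lpl (151 ± 5.59 TPM) followed Pdk4 in level, and Acadm had the highest ratio at 0.22. Angptl4 and Acot1 did not reach the detection limit in both libraries. Angptl4 had 38 and 7 counts whereas Acot1 had 25 and 39.

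**Figure D5:**
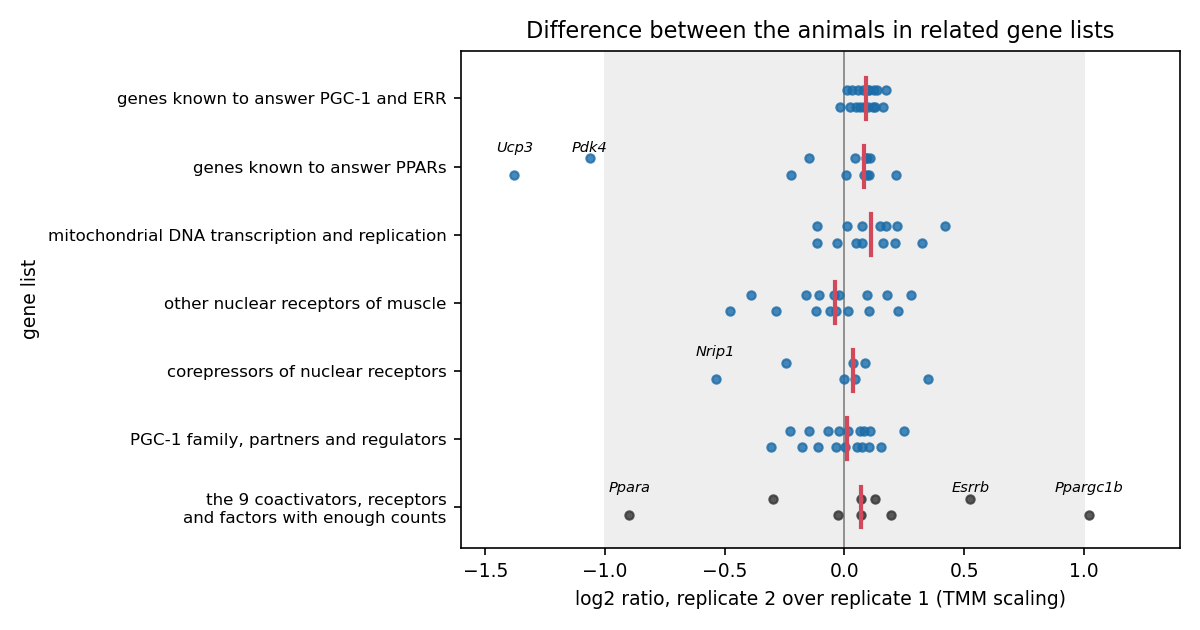
Log2 ratio of replicate 2 over replicate 1 (TMM scaling) for each gene with enough counts in the 6 related lists (blue) and among the 9 regulators (black); red bars are medians, the shaded band holds differences under 2-fold, and genes beyond 0.5 in size are named. Ucp3 and Pdk4 lie left of the band and Ppargc1b right of it, while the genes known to answer PGC-1 and ERR lie between -0.02 and 0.18.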

How the data were processed

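The authors deposited, per library, gene and transcript tables from transcriptome alignments (first quantification) and a transcript table made directly from reads (second quantification), on mm10 and GENCODE M21 per the deposited descriptions (programs, versions and strand setting not given in the sources used here). Per the labels' protocols, the library kit was directional. The deposited expected counts are estimated reads, not normalized; the deposited TPM values divide them by effective length and scale to a fixed total over all features, spike-ins included. The percent values deposited by the authors give a transcript's share of its gene by TPM. The deposited credibility bounds of TPM and posterior SD of counts (declared as signal) were read, not tested. Of 55536 gene identifiers, 55450 matched the annotation. Alignment of CAST alleles to the B6 reference can lower counts; allele of origin was not analysed here.

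Counts were rounded for edgeR 4.0.16 (R 4.3.3): CPM with TMM scaling and a prior count of 2, for genes with a mean count of at least 50. Counting intervals are exact 95% binomial intervals of the count ratio, shifted by the scaling. A difference was counted at 2-fold or more. The step was checked on simulated data. Alternatives for scaling were spike-ins and the size factors of DESeq2 1.42.0. Others were count minimums of 10 and none, a prior count of 0.5, TPM limits of 0.5 and 5, posterior means, TPM rescaled over nuclear protein-coding genes, the second quantification, leaving out a library and, added after seeing the data, count shares and complete transcripts only. Python 3.11.15 with pandas 2.3.3 and SciPy 1.17.1 served for tables and intervals.

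Members and lists were chosen with earlier results of these data known. Named genes are the 10 members; of each list the 3 highest by mean TPM, the highest and lowest ratio and those not detected; the highest gene of each marker list; the Ppargc1a transcripts of at least 1% and the leading transcript of the others. Adipoq, Retn, Lep, Cfd, Apoa1 and the forms of Esrrb, Esrrg and Tfam beyond the leading one were chosen after their values were seen. A few of the genes under this rule are left out here. No gene is named for likeness of pattern, since 2 libraries of 1 group give no pattern.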

Additional observations from a re-analysis of the deposited data

How the results depend on the processing

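No paired analysis was possible because both libraries form a single group, and ratios between the animals cannot be recomputed without either library. Leaving out a library moved no level or share by more than its SD, which it cannot with 2 libraries. Spike-in scaling shifted all ratios down: the median of the 9 regulators went from 0.07 to -0.057, Ppargc1b fell under 2-fold and Ppara passed it, and genes at least 2-fold apart split 55 higher in replicate 2 to 128 in replicate 1, against 76 to 78. List medians with spike-ins were -0.119 (PGC-1 partners), -0.0905 (corepressors), -0.168 (other nuclear receptors), -0.0166 (mitochondrial DNA), -0.0463 (PPAR genes) and -0.0384 (PGC-1 and ERR genes). Genes at least 2-fold apart rose from 154 to 578 with a count minimum of 10 and 2577 with none, where more low counts enter. The median TPM of the 10 genes went from 9.25 to 20.1 when rescaled over nuclear protein-coding genes. Esrra over Esrrg went from 3.82 to 4.08 (second quantification), 3.75 (posterior means) and 4.08 (complete transcripts). Ppard over Ppara went from 1.53 to 1.97 (complete transcripts), and Ppara over Pparg from 9.53 to 7.25 (second quantification) and 5.85 (posterior means). The Ppargc1a-203 share went from 42.1% to 76.7% by counts, and the distal share from 34.7% to 22.5% (second quantification) and 3.90% (counts); shares of TPM and of counts weigh length differently. The causes of the other shifts were not tested. The remaining 72 alternatives to the main results stayed within 1 SD, 1.5 times the count or, for median log2 ratios, a fixed limit. Those 72 include the settings without a library, which for levels and shares could not move past the SD. Depth limits Pparg, at 49 and 27 counts.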

Other observations

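Several of the 10 genes overlap other annotated genes. Trmt112, which encodes a methyltransferase cofactor, lies on the strand opposite Esrra and had 391.08 and 413.18 counts, while the Esrra counts were whole numbers with a posterior SD of 0. The microRNA genes Mir378a, within Ppargc1b, and Mir6990, within Esrra, had counts of 0 in both libraries, which allows up to 3 counts per library, or CPM values of 0.0702 and 0.0691 in replicates 1 and 2. Neither value bears on the mature microRNAs, which long-RNA libraries recover poorly. The other overlapping genes had at most 12 counts. Trmt112 and the microRNA genes were chosen after their values were seen.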
